A study of Mus musculus with 10 samples.

Results

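The mouse mitochondrial genome carries 37 genes, named in the deposited table with the prefix mt-, and their transcripts were measured in 7 RNA-seq libraries of mouse embryonic stem cells. Genes with any value above 0 were taken as members, and 29 of the 37 met that rule, among 54456 genes in the table. They were 10 of 13 protein-coding genes, 2 of 2 ribosomal RNA (rRNA) genes and 17 of 22 transfer RNA (tRNA) genes. The remaining 8 genes had a value of 0 in every library: mt-Atp6, mt-Atp8, mt-Nd4l, mt-Td, mt-Tg, mt-Th, mt-Tk and mt-Tr. A value of 0 is a count of 0 reads in a library. It allows an expected count of up to 3 reads, or 2.45 to 4.18 normalized counts depending on the library. That limit does not cover any reads left out because they match several places.

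The cells were of strain C57BL/6J and were cultured on gelatin in serum medium with LIF and inhibitors of GSK3 (CHIR99021) and MEK (PD0325901). There were 2 libraries of conv-dSVA_F&D, 2 of conv-dSVA_F, 2 of conv-dSVA_D and 1 of the wild-type line MK6. The 3 converted lines share the listed elements loxP[Taf1_i24], pSpCas9[null] and pSpCas9GFP[null], the landing-pad insertion LPSwapinRed_pUC19[Taf1_3_4], the Cre plasmid pCAGiCre[null] and a humanized allele at Taf1_1_2 built from hTAF1. That allele is labelled mousifiedSVAdel, dSVA2 and converted in conv-dSVA_F&D. It is labelled mousifiedSVAdel and converted in conv-dSVA_F. It is labelled mousified, dSVA2 and converted in conv-dSVA_D. SVA elements are hominid retrotransposons, and the line names give the SVA that is missing. Each genotype has 1 line name and no clone is given, so genotype and line cannot be told apart. Whether replicates are separate cultures is not stated, so p-values measure the spread between these libraries, which may be technical. A stem cell library from before conversion and 2 striatal libraries from week 3 were not analysed here.

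Mitochondrial DNA is a small circle transcribed along nearly its whole length from both strands by a dedicated RNA polymerase, Polrmt. The long transcripts are cut mainly at the tRNAs that lie between the other genes, which frees the rRNAs and messenger RNAs. The proteins encoded there are core subunits of respiratory complexes I, III and IV and of the ATP synthase, and all other proteins of mitochondria are made from nuclear genes. Copies of mitochondrial DNA also lie in the nuclear genome as pseudogenes.

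The letters of several genes show identical stretches, within which a short read could not be placed on 1 gene. Positions are in GRCm38 and sequences are from GENCODE M21 transcripts. The first 60 bases of mt-Co2 (chrM:7013-7072, plus strand) and of its chromosome 1 copy Gm28661 (chr1:24615506-24615565, minus strand) are identical, and those of mt-Nd3 (chrM:9459-9518) and Gm28438 (chr1:24613060-24613119, minus strand) differ at 1 base. A 90-base window of mt-Co1 (chrM:6427-6516) is set beside its copies Gm29216 (chr1:24616062-24616151, minus strand) and Gm13340 (chr2:22588459-22588548, minus strand). Each line is 5′ to 3′ on the strand of its own gene, and capitals mark bases that differ from the mitochondrial gene.
mt-Co2: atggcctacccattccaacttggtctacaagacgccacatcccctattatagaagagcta
Gm28661: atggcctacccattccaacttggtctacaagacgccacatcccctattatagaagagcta
mt-Nd3: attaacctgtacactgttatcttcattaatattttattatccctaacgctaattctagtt
Gm28438: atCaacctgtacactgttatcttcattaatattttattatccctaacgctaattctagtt
mt-Co1: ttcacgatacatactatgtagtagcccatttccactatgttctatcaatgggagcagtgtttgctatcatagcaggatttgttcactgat
Gm29216: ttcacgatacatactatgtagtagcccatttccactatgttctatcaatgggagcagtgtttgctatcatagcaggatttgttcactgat
Gm13340: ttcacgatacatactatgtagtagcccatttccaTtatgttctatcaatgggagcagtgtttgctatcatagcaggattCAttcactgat

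Some mitochondrial genes also share bases with each other. Of the 37 genes, 9 neighbouring pairs overlap, 6 on the same strand and 3 on opposite strands. The largest overlap is between mt-Atp8 and mt-Atp6, which encode ATP synthase subunits and share 43 bases. The complex I genes mt-Nd4l and mt-Nd4 share 7 bases, and mt-Tq, the glutamine tRNA on the minus strand, lies opposite 3 bases of mt-Ti, the isoleucine tRNA. In these lines, capitals mark the shared bases (chrM:7907-7989, chrM:10137-10203 and, on the minus strand, chrM:3772-3842).
mt-Atp8 into mt-Atp6: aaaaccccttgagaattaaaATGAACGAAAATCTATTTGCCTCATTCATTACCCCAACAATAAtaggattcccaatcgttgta
mt-Nd4l into mt-Nd4: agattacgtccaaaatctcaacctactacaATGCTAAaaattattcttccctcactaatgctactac
mt-Tq: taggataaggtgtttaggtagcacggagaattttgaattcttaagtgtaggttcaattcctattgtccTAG

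Reads assigned to genes ranged between 16588467 and 26562418 per library. All 8 stem cell markers were present, with a summed level of 126019 to 160466 normalized counts in the converted libraries and 145858 in the wild type. Taf1, the edited gene, was at 1116 and 1088 normalized counts in conv-dSVA_F&D, 501 and 589 in conv-dSVA_F, 362 and 418 in conv-dSVA_D, and 2898 in the wild type. The build was the mouse genome mm10, and whether reads from hTAF1 sequence were counted is not given. The values of the converted lines may therefore miss part of the humanized allele's transcripts. A normalized count is a gene's read count divided by 1 size factor per library.

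Mitochondrial genes together took about 1 in 100 of the reads assigned to genes. Their share was 0.979% and 0.774% in conv-dSVA_F&D, 1.27% and 0.997% in conv-dSVA_F, 1.19% and 0.967% in conv-dSVA_D, and 0.768% in the wild type. The Wilson 95% interval of the largest share was 1.268% to 1.277%, so counting error was small beside the differences between replicates. The wild type had the lowest share, close to that of conv-dSVA_F&D replicate 2. The mean over the 6 converted libraries, from 3 lines, was 1.03% ± 0.177 (SD, n = 6). This SD mixes the spread between lines with that between replicates. In bulk libraries, a different number of mitochondrial genomes per cell, a different amount of RNA per genome and a different mix of cells cannot be told apart. Such intervals cover counting error only, since reads without molecular identifiers are not independent molecules.

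The 2 rRNA genes held most of these reads, 64.7% to 68.7% of mitochondrial reads in the converted libraries and 55.8% in the wild type. Their share of all assigned reads was 0.633% and 0.519% in conv-dSVA_F&D, 0.848% and 0.663% in conv-dSVA_F, 0.816% and 0.656% in conv-dSVA_D, and 0.428% in the wild type. The kit that made the libraries removes cytoplasmic and mitochondrial rRNA, so these values are what was left after depletion. Every converted library lay above the wild type. Protein-coding genes took 0.344% and 0.253% in conv-dSVA_F&D, 0.423% and 0.333% in conv-dSVA_F, 0.371% and 0.310% in conv-dSVA_D, and 0.338% in the wild type, which lay inside the converted range. The tRNA genes took 0.00107% to 0.00204% in the converted libraries and 0.00228% in the wild type. Wilson 95% intervals of the tRNA share overlapped between conv-dSVA_F&D replicate 2 (0.00184% to 0.00227%) and the wild type (0.00209% to 0.00249%).

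**Figure D1:**
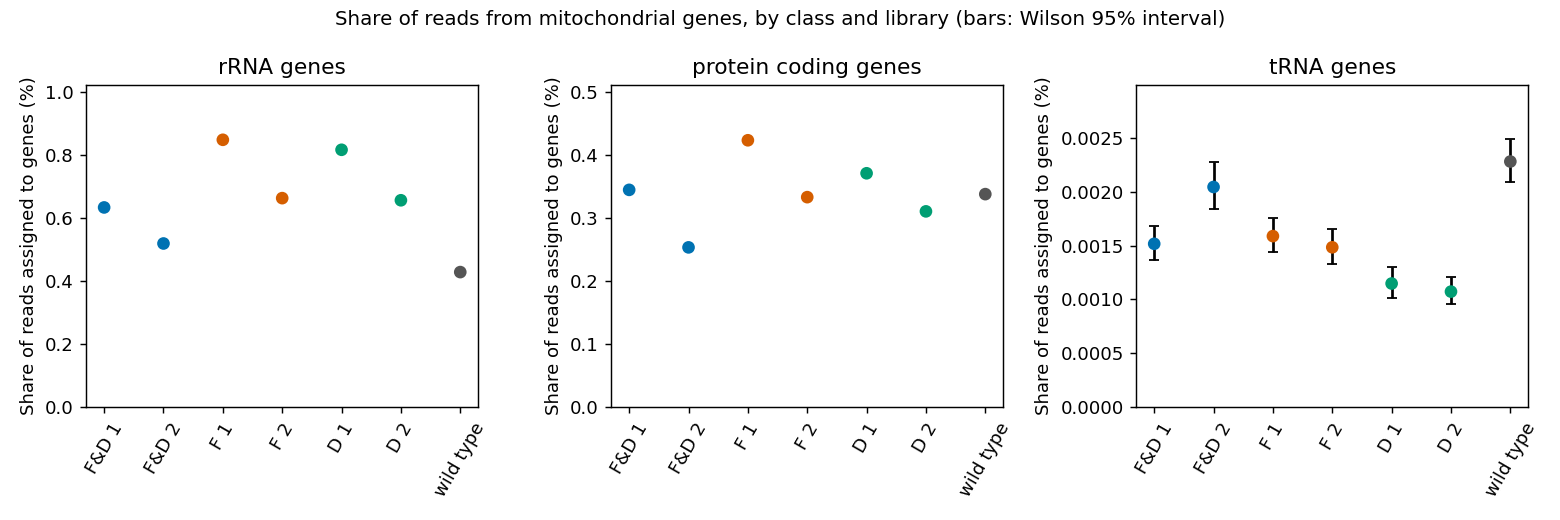
Share of reads assigned to genes (%, linear axis) taken by mitochondrial rRNA, protein-coding and tRNA genes, with 1 point for each of the 7 libraries and bars for the Wilson 95% interval (smaller than the points for rRNA and protein-coding genes). The rRNA share of the wild type, 0.428%, lies below all 6 converted libraries, while its protein-coding share, 0.338%, lies among them.

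Within the rRNAs, mt-Rnr2, the 16S rRNA of the large mitochondrial ribosomal subunit (chrM:1094-2675), was the most abundant transcript of the set. It had 112415 and 101297 normalized counts in conv-dSVA_F&D, 151353 and 123434 in conv-dSVA_F, 144927 and 119948 in conv-dSVA_D, and 87397 in the wild type. The conv-dSVA_F&D libraries were below the other converted libraries, and the wild type was lowest. Its small-subunit partner mt-Rnr1, the 12S rRNA (chrM:70-1024), had 24090 and 18646 normalized counts in conv-dSVA_F&D, 28069 and 20339 in conv-dSVA_F, 30473 and 22314 in conv-dSVA_D, and 12083 in the wild type. All 6 converted libraries were above the wild type, and the 3 converted groups overlapped. The ratio of mt-Rnr2 to mt-Rnr1 normalized counts was 4.67 and 5.43 in conv-dSVA_F&D, 5.39 and 6.07 in conv-dSVA_F, 4.76 and 5.38 in conv-dSVA_D, and 7.23 in the wild type.

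Among protein-coding genes, mt-Co1, the catalytic subunit of cytochrome c oxidase (complex IV), stood far above the rest. It had 54289 and 42212 normalized counts in conv-dSVA_F&D, 59287 and 55180 in conv-dSVA_F, 56458 and 51100 in conv-dSVA_D, and 59309 in the wild type. By normalized count the wild type and conv-dSVA_F replicate 1 were nearly level at the top. By share of assigned reads, mt-Co1 took 0.280% in conv-dSVA_F replicate 1, 0.263% in conv-dSVA_D replicate 1 and 0.255% in the wild type. The ratio of mt-Co1 to mt-Rnr2 was 0.390 to 0.483 in the converted libraries and 0.679 in the wild type. Levels of different genes were compared per length, as normalized counts per kilobase of gene averaged over the 7 libraries. On that scale mt-Co1 had 34936, mt-Nd1 10975 and mt-Cytb 3978 normalized counts per kilobase. These 3 genes kept that order in 7 of 7 libraries, and their ranges did not overlap. Below them, mt-Nd2 had 1557, mt-Nd5 1196 and mt-Nd4 972 normalized counts per kilobase, and the ranges of neighbours in that order overlapped. The lowest of the tested messages was mt-Nd6, at 187 normalized counts per kilobase and below mt-Nd4 in 7 of 7 libraries.

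Complex I, which passes electrons from NADH to ubiquinone, has 7 subunits encoded in mitochondrial DNA. The most abundant of them was mt-Nd1, with 9690 and 8658 normalized counts in conv-dSVA_F&D, 15490 and 9636 in conv-dSVA_F, 11396 and 8370 in conv-dSVA_D, and 10282 in the wild type. Its highest value was in conv-dSVA_F replicate 1. The converted groups overlapped, and both conv-dSVA_F&D libraries were below the wild type. Its fellow subunit mt-Nd2 had 1512 and 1289 normalized counts in conv-dSVA_F&D, 2731 and 1180 in conv-dSVA_F, 1926 and 1424 in conv-dSVA_D, and 1250 in the wild type. The proton-pumping subunit mt-Nd5 had 2976 and 1779 normalized counts in conv-dSVA_F&D, 2877 and 1332 in conv-dSVA_F, 2598 and 1762 in conv-dSVA_D, and 1953 in the wild type. The related subunit mt-Nd4 had 1644 and 910 normalized counts in conv-dSVA_F&D, 2251 and 753 in conv-dSVA_F, 1721 and 948 in conv-dSVA_D, and 1156 in the wild type. In each converted group 1 of the libraries was well above its partner for mt-Nd4 and mt-Nd5, and the wild type lay between them. Complex III has 1 such subunit, mt-Cytb (cytochrome b), which had 4089 and 3595 normalized counts in conv-dSVA_F&D, 6785 and 4019 in conv-dSVA_F, 5503 and 3610 in conv-dSVA_D, and 4258 in the wild type. The converted groups overlapped for mt-Cytb too, and both conv-dSVA_F&D libraries were again below the wild type.

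For most of these genes, the replicates of at least 1 group differed more than the means of the converted lines. In 8 of the 9 tested protein-coding and rRNA genes, the largest ratio between the replicates of a group exceeded the largest ratio between the means of the converted groups. For mt-Nd4, the ratio between the conv-dSVA_F replicates was 2.99, against 1.18 between the most distant group means. The exception was mt-Rnr2, with a largest replicate ratio of 1.23 and a largest ratio of group means of 1.29. This count sets the largest of 3 ratios of single libraries against a ratio of means, which favours the replicates. For mt-Nd6 the replicate ratio was 2.21 in conv-dSVA_F&D, 1.00 in conv-dSVA_F and 1.12 in conv-dSVA_D. The largest ratio of its group means was 1.64. For 8 of the 9 genes, the library named replicate 1 was above replicate 2 in each of the 3 converted groups, and for mt-Nd6 it was below it in all 3. The labels give no replicate numbers, so the numbers used here, given in accession order, only name libraries. Whether libraries of the same number share a batch is not stated and was not tested.

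**Figure D2:**
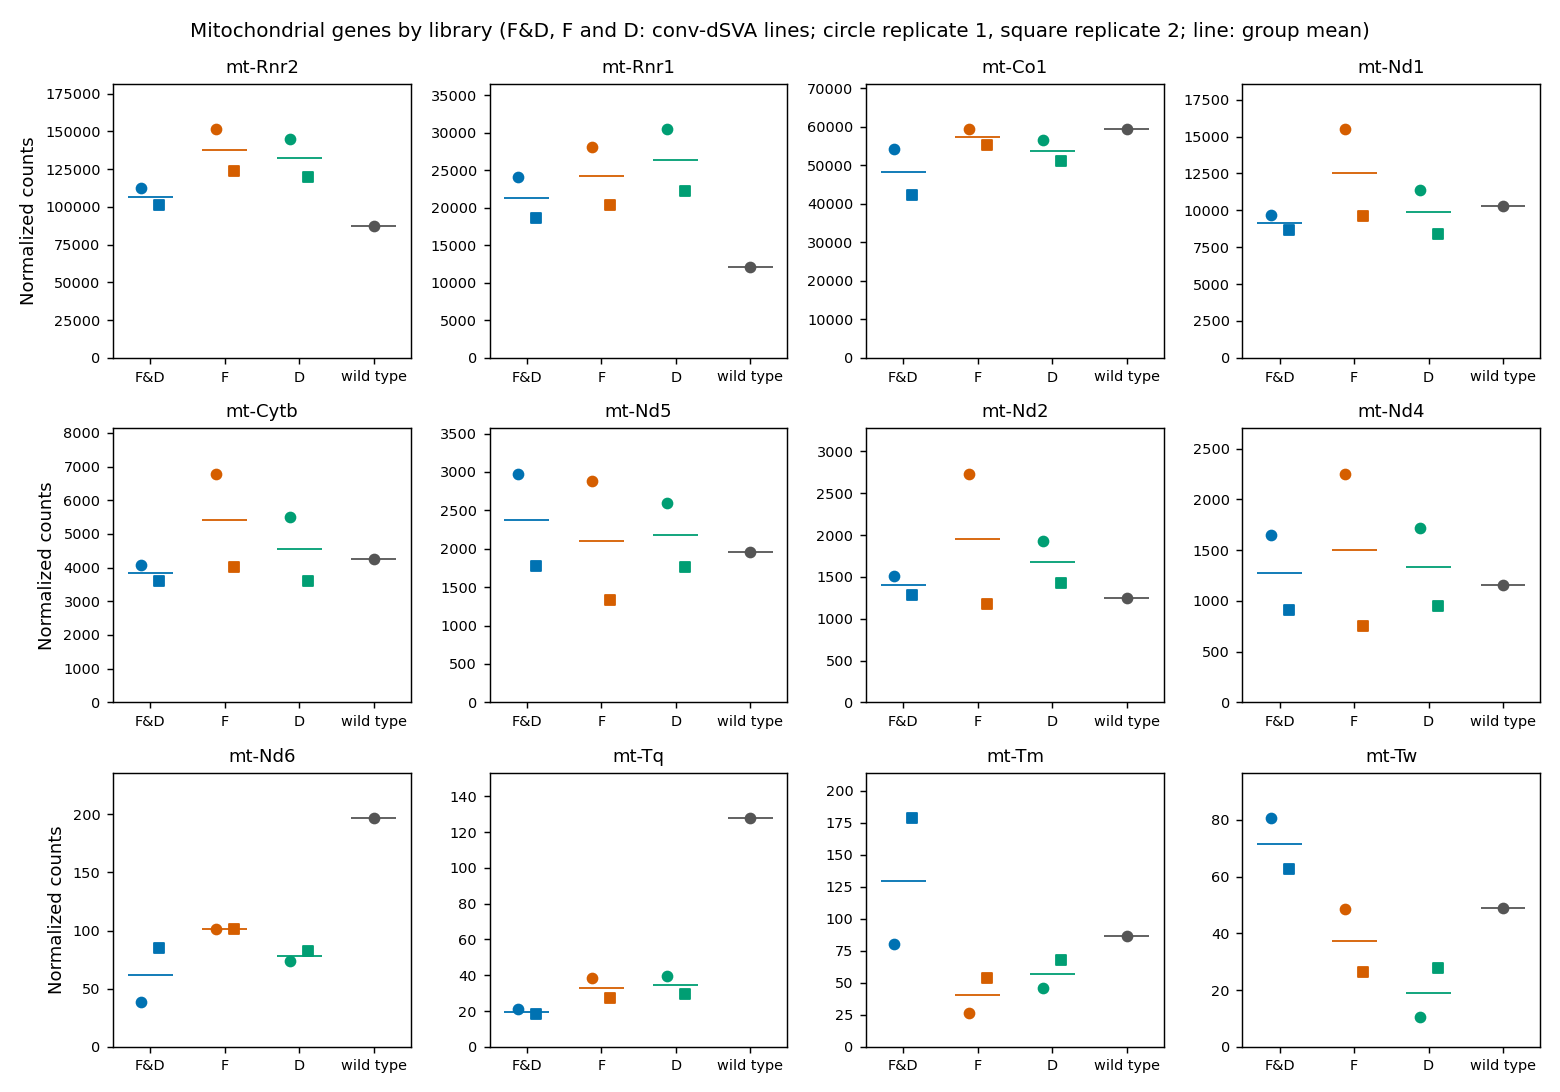
Normalized counts (linear axes from 0) of 12 mitochondrial genes in conv-dSVA_F&D, conv-dSVA_F, conv-dSVA_D and wild-type libraries, with circles for replicate 1, squares for replicate 2 and a line at the group mean. For mt-Nd4 the conv-dSVA_F replicates stand at 2251 and 753, while for mt-Nd6 and mt-Tq the wild type, at 196 and 128, is above all converted libraries.

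Several of the genes of complex IV and of the ATP synthase had almost no reads. The complex IV subunit genes mt-Co2 and mt-Co3 and the complex I gene mt-Nd3 had 2, 4 and 5 reads over all 7 libraries, and mt-Atp6, mt-Atp8 and mt-Nd4l had 0. On chromosome M these 6 genes follow each other, with tRNA genes among them, between mt-Co1 and mt-Nd4. Annotated pseudogenes on chromosome 1 (chr1:24611535-24616197, minus strand) follow the same order as chrM:6381-11042. Their sequences were aligned with the mitochondrial genes. The copies differ at 0 of 783 bases from mt-Co3, 0 of 681 from mt-Co2, 0 of 678 from mt-Atp6, 0 of 294 from mt-Nd4l and 1 of 345 from mt-Nd3. For mt-Co1 and mt-Nd4 the copies cover only part of the gene, with 6 differences in 492 bases of mt-Co1 and 0 in the first 876 bases of mt-Nd4.

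Reads followed this block. The 11 genes wholly inside it, 6 protein-coding and 5 tRNA genes, held 15 reads over the 7 libraries, at most 4 for 1 gene in 1 library, and 7 of the 11 were at 0. The 2 genes partly inside it, mt-Co1 and mt-Nd4, held 399183 reads. The 24 genes outside it held 1175588 reads, and 23 of the 24 had reads, the exception being the histidine tRNA mt-Th. The share of a gene's 50-base windows that also occur in a nuclear gene transcript was 100% for mt-Co2, 99.9% for mt-Co3, 99.5% for mt-Atp6, 98.8% for mt-Nd4l and 98.0% for mt-Nd3. It was 62.2% for mt-Nd4 and 51.1% for mt-Co1. It was 8.19% for mt-Nd2, 7.61% for mt-Nd5 and 1.04% for mt-Rnr2, and 0% for mt-Rnr1, mt-Nd1, mt-Nd6 and mt-Cytb. The window share of mt-Atp8 was also 0%, and no annotated transcript covers the 233-base gap between the copies of mt-Atp6 and mt-Co2 (chr1:24614652-24614884). How reads that map to more than 1 place were treated is not given, and its part in the low values was not tested. The levels of mt-Co1 and mt-Nd4 per kilobase are therefore uncertain. Divided by the windows that no nuclear transcript shares, their mean levels were 73839 and 2670 normalized counts per kilobase. On that scale mt-Nd2 had 1780 and mt-Nd5 1331, so mt-Nd4 stood above both.

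**Figure D3:**
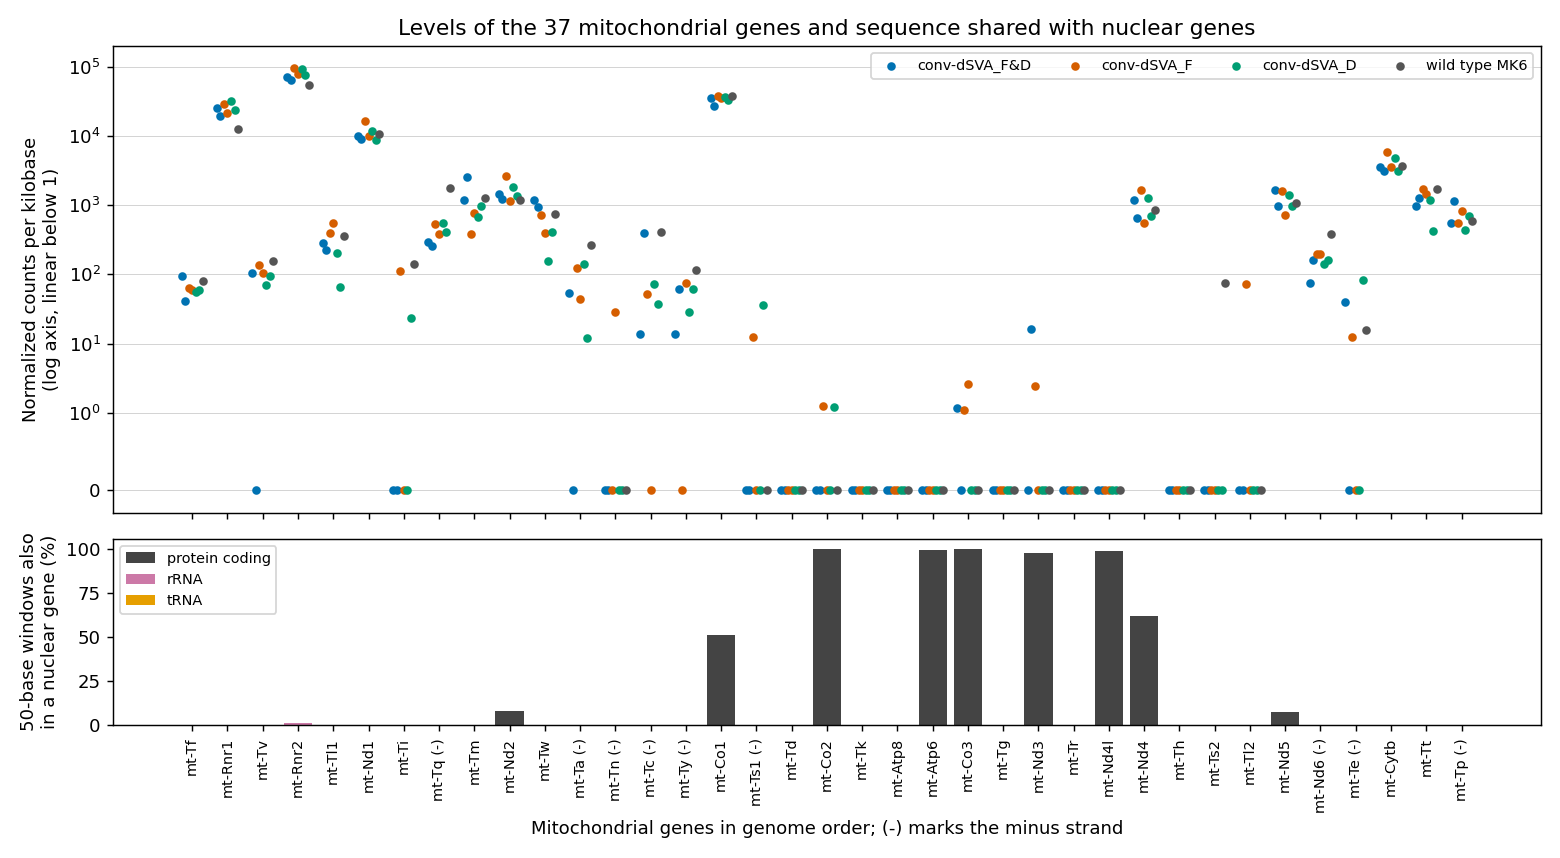
Normalized counts per kilobase (upper panel, log axis that is linear below 1) of the 37 mitochondrial genes in genome order, with 1 point per library coloured by group, and the share of each gene's 50-base windows that also occur in a nuclear gene transcript (lower panel, %). From mt-Ts1 to mt-Nd4l no gene has more than 4 reads in a library, and that stretch holds the 5 genes with window shares of 98.0% to 100%.

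The nuclear copies themselves had low values. The copy of mt-Nd3, Gm28438, had 27.5 and 121 normalized counts in conv-dSVA_F&D, 42.5 and 113 in conv-dSVA_F, 44.2 and 55.5 in conv-dSVA_D, and 119 in the wild type. It was the highest of the copies listed here, which may not be all copies, and its replicates differed widely. The copy of mt-Co3, Gm28437, ranged between 12.5 and 39.4 normalized counts over the 7 libraries. The chromosome 2 copy of mt-Co1, Gm13340, ranged between 10.6 and 21.3, and the chromosome 1 copy, Gm29216, between 4.80 and 17.3. The copy of mt-Co2, Gm28661, ranged between 3.27 and 10.2 normalized counts. Reads from stretches that are identical in both members of a pair cannot be told apart, so the values of both members are uncertain.

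The genes of the minus strand had low levels, but most of them are tRNA genes, which were low on both strands. That strand carries 9 of the 37 genes, mt-Nd6 and 8 tRNAs, and their summed level was 105 and 210 normalized counts in conv-dSVA_F&D, 191 and 194 in conv-dSVA_F, 159 and 174 in conv-dSVA_D, and 418 in the wild type. All converted libraries were below the wild type. The 8 minus-strand tRNA genes summed to 66.9 to 125 normalized counts in the converted libraries and 222 in the wild type. The 14 plus-strand tRNA genes summed to 141 to 347 in the converted libraries and 308 in the wild type. The complex I subunit gene mt-Nd6 (chrM:13552-14070) had 38.5 and 85.0 normalized counts in conv-dSVA_F&D, 101 and 102 in conv-dSVA_F, 73.9 and 82.5 in conv-dSVA_D, and 196 in the wild type. The strand setting of the read counting is not given, so reads of a gene and of RNA opposite to it cannot be told apart. The last 14 bases of mt-Nd5 also lie opposite mt-Nd6.

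The tRNA genes are 59 to 75 bases long, and reads of a mature tRNA and of an uncut precursor cannot be told apart in these counts. The highest level per kilobase among them was that of mt-Tt, the threonine tRNA, with 64.1 and 86.4 normalized counts in conv-dSVA_F&D, 116 and 96.5 in conv-dSVA_F, 80.7 and 28.6 in conv-dSVA_D, and 115 in the wild type. The methionine tRNA mt-Tm had 80.6 and 178 normalized counts in conv-dSVA_F&D, 26.4 and 53.8 in conv-dSVA_F, 46.1 and 67.8 in conv-dSVA_D, and 86.2 in the wild type. Both conv-dSVA_F&D libraries were above the other converted libraries. The tryptophan tRNA mt-Tw had 80.6 and 62.7 normalized counts in conv-dSVA_F&D, 48.5 and 26.4 in conv-dSVA_F, 10.6 and 27.8 in conv-dSVA_D, and 49.1 in the wild type. The glutamine tRNA mt-Tq, whose sequence is given above, had 21.1 and 18.1 normalized counts in conv-dSVA_F&D, 38.3 and 27.4 in conv-dSVA_F, 39.4 and 29.4 in conv-dSVA_D, and 128 in the wild type. The wild type stood apart with 117 reads, while the lowest library had 13. The proline tRNA mt-Tp had 37.5 and 76.6 normalized counts in conv-dSVA_F&D, 37.4 and 54.8 in conv-dSVA_F, 29.8 and 46.5 in conv-dSVA_D, and 39.3 in the wild type. The leucine tRNA mt-Tl1 had 21.1 and 16.7 normalized counts in conv-dSVA_F&D, 29.8 and 41.6 in conv-dSVA_F, 15.4 and 4.90 in conv-dSVA_D, and 27.3 in the wild type. Neighbouring tRNAs in the order of mean level per kilobase overlapped in range. The other 11 tRNA genes with reads had a mean below 10 normalized counts and at most 25 reads in any library.

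Differences were tested on log2 of the normalized count plus 1 with limma, in the 15240 genes that averaged 10 or more across libraries, and Benjamini-Hochberg adjustment covered all of them. Of the members, 15 met that minimum: 7 protein-coding, 2 rRNA and 6 tRNA genes. The other 14 members were too low and were not tested. A log2 difference is that of the first group over the other, ± its standard error, and the added count of 1 makes it understate the difference of low genes.

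The label that separates conv-dSVA_F&D from conv-dSVA_D is the SVA_F deletion, and no mitochondrial gene passed between them. Log2 differences were below 0 for 6 of 7 protein-coding genes and 2 of 2 rRNAs and above 0 for 5 of 6 tRNAs. The test called 0 of the 15 members at an adjusted p of 0.05, against 3.16% of all genes tested. With edgeR and DESeq2, 0 and 0 were called. Beside 3022 of all 15240 genes tested, 1 member had an unadjusted p below 0.05. That gene was mt-Tw, with a log2 difference of 1.98 ± 0.58 and no overlap between the groups (limma adjusted p = 0.0993). It was 1.33 without conv-dSVA_D replicate 1 and 2.64 without conv-dSVA_D replicate 2. For mt-Rnr2 the log2 difference was -0.31 ± 0.17 (limma adjusted p = 0.357), again without overlap. The groups did not overlap for 5 of the 15 members, against 49.9% of all genes tested. The median log2 difference was -0.093 over the 15 members and -0.0029 over all genes tested. For mt-Co1 the difference of -0.17 had a 95% interval of -0.50 to 0.17 on the log2 scale, and without conv-dSVA_F&D replicate 2 it was 0.015.

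The label that separates conv-dSVA_F&D from conv-dSVA_F is the SVA_D deletion. There 11 of the 15 members had log2 differences below 0 and 4 above 0. None passed in limma, against 3.92% of all genes tested. Beside 3159 of all 15240 genes tested, 1 member had an unadjusted p below 0.05. That member was mt-Tm, at 1.64 ± 0.51 on the log2 scale (limma adjusted p = 0.109). DESeq2 called it (1.69, adjusted p = 0.0297) and edgeR called 0 members. Without conv-dSVA_F&D replicate 1 limma called it as well (2.21, adjusted p = 0.0467). Without conv-dSVA_F&D replicate 2 it was 1.07 (adjusted p = 0.349), and without conv-dSVA_F replicate 1 it was 1.14 (adjusted p = 0.498). For mt-Rnr2 the log2 difference was -0.36 ± 0.17 (limma adjusted p = 0.265). For mt-Nd6 it was -0.81 ± 0.41 (limma adjusted p = 0.293), with values of -0.25 without conv-dSVA_F&D replicate 1 and -1.38 without conv-dSVA_F&D replicate 2. The groups did not overlap for 8 of the 15 members, against 49.3% of all genes tested. The median log2 difference was -0.36 over the members and -0.011 over all genes tested. Since this comparison shares the conv-dSVA_F&D libraries with the one before it, the 2 are not independent.

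Between conv-dSVA_F and conv-dSVA_D, which differ in both labels, no member passed. The median log2 difference was 0.12 over the 15 members and -0.0072 over all genes tested. The test called 0 members, against 1.35% of all genes tested, and edgeR and DESeq2 called 0 and 0. Beside 2541 of all 15240 genes tested, 2 members, both tRNA genes, had an unadjusted p below 0.05. For mt-Tl1 the log2 difference was 1.88 ± 0.69 (limma adjusted p = 0.211). For mt-Tt it was 1.12 ± 0.48 (limma adjusted p = 0.286). Both moved with 1 library: without conv-dSVA_D replicate 1 mt-Tl1 was at 2.62 and mt-Tt at 1.85, and without conv-dSVA_D replicate 2 at 1.15 and 0.39. The groups did not overlap for 3 of the 15 members, against 52% of all genes tested. For mt-Co1 the difference was 0.091 with a 95% interval of -0.25 to 0.43, and for mt-Rnr2 it was 0.052 with an interval of -0.33 to 0.43, on the log2 scale. The value for mt-Rnr2 was -0.095 without conv-dSVA_F replicate 1 and -0.085 without conv-dSVA_D replicate 2. For mt-Nd6, whose groups did not overlap, it was 0.37 with an interval of -0.54 to 1.28.

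Set against the single wild-type library, the converted groups had higher mean levels of both rRNAs and lower ones of mt-Tq and mt-Nd6, but no member passed. The fit gave this lone library the spread of the converted groups. For mt-Rnr1 the log2 difference was 0.97 ± 0.21, higher in 6 of 6 converted libraries (limma adjusted p = 0.0622). For mt-Rnr2 it was 0.51 ± 0.18, also higher in 6 of 6 (limma adjusted p = 0.173). For mt-Tq it was -2.16 ± 0.53, lower in 6 of 6 (limma adjusted p = 0.0771). For mt-Nd6 it was -1.34 ± 0.44, lower in 6 of 6 (limma adjusted p = 0.143). These 4 were the members with an unadjusted p below 0.05, beside 2849 of all 15240 genes tested. In limma 0 of the 15 members were called, against 1.15% of all genes tested. DESeq2 called mt-Rnr1 (0.98, adjusted p = 0.000204) and mt-Rnr2 (0.51, adjusted p = 0.0288), and edgeR called mt-Tq (-2.19, adjusted p = 0.0437). Without conv-dSVA_F&D replicate 2, limma called mt-Rnr1 (1.03, adjusted p = 0.0329) and mt-Nd6 (-1.53, adjusted p = 0.0438). The wild type lay outside the converted range for 5 of the 15 members, against 37.8% of all genes tested. The median log2 difference was 0.0026 over the members and -0.012 over all genes tested. For mt-Co1 the difference was -0.17, with a 95% interval of -0.53 to 0.20.

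Markers of other cell types were summed as well. The wild type stood apart for the fibroblast or feeder markers and lay inside the converted range for the other sets. The summed level of 6 fibroblast or feeder markers was 39.4 to 87.8 normalized counts in the converted libraries and 267 in the wild type. Of these markers, 1, Lum, was at 0 in every library, and 3 had a mean of at least 10. The summed level of 4 cardiac or skeletal muscle markers was 1.39 to 38.5 normalized counts in the converted libraries and 22.9 in the wild type. The summed level of 4 striatal neuron markers, of which Drd1 was at 0 in every library, was 8.51 to 46.0 in the converted libraries and 18.6 in the wild type. The part of such cells in the mitochondrial values was not tested.

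**Figure D4:**
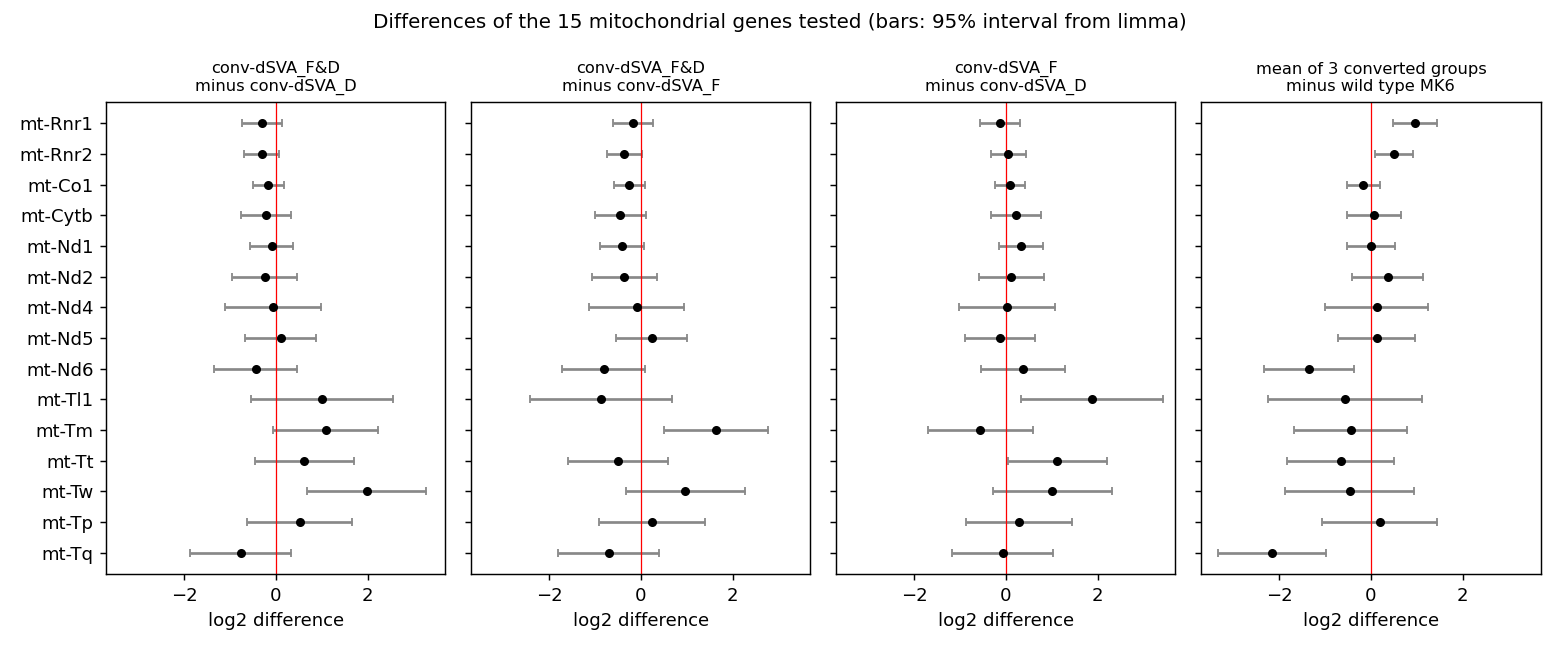
Log2 differences of the 15 tested mitochondrial genes in each of the 4 comparisons, with the limma estimate as a point and its 95% interval as a bar. The widest intervals belong to tRNA genes with few reads, and mt-Tq, at -2.16, and mt-Nd6, at -1.34, lie farthest from 0 in the comparison with the wild type.

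Nuclear genes that act on mitochondrial DNA and RNA were read beside the members. Of 22 tested genes for mitochondrial DNA maintenance and transcription, 1 fell in conv-dSVA_F&D against conv-dSVA_F, where 2.21% of all genes tested fell. It was Ssbp1, which coats single-stranded mitochondrial DNA, with 1416 and 1810 normalized counts in conv-dSVA_F&D against 2546 and 2476 in conv-dSVA_F. Its log2 difference was -0.65 ± 0.14 (limma adjusted p = 0.0408). In the converted groups against the wild type 1 gene of the list rose, where 0.623% of all genes tested rose. It was Mrpl12, a large-subunit protein of the mitochondrial ribosome that also binds Polrmt in human cells, at 0.94 ± 0.14 (limma adjusted p = 0.0312). It had 2139 and 2432 normalized counts in conv-dSVA_F&D, 2005 and 2412 in conv-dSVA_F, 2626 and 2506 in conv-dSVA_D, and 1221 in the wild type. The polymerase gene Polrmt itself had a log2 difference of 0.46 ± 0.17 from the wild type (limma adjusted p = 0.181). The gene for the packaging factor Tfam had one of 0.0049 ± 0.12 (limma adjusted p = 0.988).

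Of 32 tested genes for processing, modification and stability of mitochondrial RNA, 2 fell in conv-dSVA_F&D against conv-dSVA_F, where 2.21% of all genes tested fell. They were Trnt1, which adds the CCA end to tRNAs (-0.74 ± 0.14, limma adjusted p = 0.0234), and Gtpbp3, which modifies a wobble base in mitochondrial tRNAs (-0.62 ± 0.15, limma adjusted p = 0.0481). For Trnt1 the levels were 1249 and 1043 normalized counts in conv-dSVA_F&D against 2017 and 1802 in conv-dSVA_F. For Gtpbp3 they were 621 and 677 normalized counts in conv-dSVA_F&D against 990 and 1009 in conv-dSVA_F. Neither overlapped between the groups. No gene of that list was called by limma in the other 3 comparisons, where 6, 4 and 5 of its 32 genes had an unadjusted p below 0.05, beside 3022, 2541 and 2849 of all 15240. The message-stabilizing partners Lrpprc and Slirp had log2 differences of 0.29 ± 0.11 and -0.40 ± 0.19 from the wild type (limma adjusted p = 0.194 and 0.287).

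Of 77 tested genes for mitochondrial ribosomal proteins, 3 fell in conv-dSVA_F&D against conv-dSVA_D, where 1.21% of all genes tested fell. They encode large-subunit proteins: Mrpl57 (-0.77 ± 0.12, limma adjusted p = 0.0155), Mrpl16 (-0.61 ± 0.13, adjusted p = 0.0422) and Mrpl51 (-0.67 ± 0.15, adjusted p = 0.0484). The median log2 difference of the list was -0.17, beside -0.0029 over all genes tested. Against conv-dSVA_F, 1 of the 77 fell in conv-dSVA_F&D, where 2.21% of all genes tested fell. It was Mrps25 of the small subunit (-0.79 ± 0.16, limma adjusted p = 0.0311). The list's median from the wild type was -0.25, beside -0.012 over all genes tested. The only gene called there was Mrpl12, which rose, where 0.623% of all genes tested rose. Of the 77, 30 had an unadjusted p below 0.05 in that comparison, beside 2849 of all 15240. Of 38 tested nuclear genes for respiratory subunits, 1 fell in conv-dSVA_F&D against conv-dSVA_D, the complex I gene Ndufb10 (-0.68 ± 0.13, limma adjusted p = 0.0301). Their median from the wild type was -0.29, with 0 genes called by limma, against 1.15% of all genes tested. Of the 38, 15 had an unadjusted p below 0.05, beside 2849 of all 15240.

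Of 16 tested genes of the mitochondrial stress response, 2 rose and 1 fell in conv-dSVA_F&D against conv-dSVA_F, where 1.71% of all genes tested rose and 2.21% fell. Those that rose were Phgdh, for the first step of serine synthesis (0.82 ± 0.16, limma adjusted p = 0.0269), and Shmt2, a mitochondrial serine enzyme (0.67 ± 0.15, limma adjusted p = 0.0373). The one that fell was Mthfd2, a mitochondrial folate enzyme (-0.68 ± 0.12, limma adjusted p = 0.0231), with 1486 and 1486 normalized counts in conv-dSVA_F&D against 2314 and 2459 in conv-dSVA_F. In conv-dSVA_F against conv-dSVA_D, Mthfd2 rose (0.95 ± 0.12, limma adjusted p = 0.0151), where 1.08% of all genes tested rose. Ssbp1, Trnt1, Mrps25, Mrpl51 and Mthfd2 lie on chromosome 6 and Gtpbp3 on chromosome 8. The median log2 difference between conv-dSVA_F&D and conv-dSVA_F was -0.41 over 728 tested genes of chromosome 6 and -0.55 over 798 of chromosome 8. For the 728 genes of chromosome 6 it was -0.11 in conv-dSVA_F&D against conv-dSVA_D, where Mrpl51 was called, and 0.30 in conv-dSVA_F against conv-dSVA_D. The part of these chromosome-wide values in the calls was not tested. The calls also rest on single libraries: without conv-dSVA_D replicate 1, limma called 0 of all genes in conv-dSVA_F&D against conv-dSVA_D and 2 in the converted groups against the wild type. Without conv-dSVA_F replicate 1 it called 0 in conv-dSVA_F&D against conv-dSVA_F. Without conv-dSVA_D replicate 2 it called 0 in conv-dSVA_F against conv-dSVA_D.

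Cytoplasmic rRNA left after depletion was read as a measure of the libraries. Rn18s-rs5, an 18S rRNA-related gene, had 13871 and 12241 normalized counts in conv-dSVA_F&D, 7721 and 4659 in conv-dSVA_F, 9154 and 5846 in conv-dSVA_D, and 9986 in the wild type. Both conv-dSVA_F&D libraries were the highest. Against conv-dSVA_F it rose by a log2 difference of 1.12 ± 0.25 (limma adjusted p = 0.0391), where 1.71% of all genes tested rose. It was the only gene called of the 4 tested on the list of residual rRNA. The others were Lars2, mt-Rnr1 and mt-Rnr2, so no other gene for cytoplasmic rRNA was read. Lars2, which encodes the mitochondrial leucyl-tRNA synthetase, had a log2 difference of 0.73 ± 0.25 in conv-dSVA_F&D against conv-dSVA_F (limma adjusted p = 0.137). From the wild type Rn18s-rs5 had a log2 difference of -0.27 ± 0.26 (limma adjusted p = 0.650), beside 0.97 for mt-Rnr1 and 0.51 for mt-Rnr2. How completely mitochondrial rRNA was removed from each library was not tested.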

How the data were processed

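Total RNA of 7 mouse embryonic stem cell libraries was sequenced after depletion of rRNA with a stranded kit, per the labels' protocols. The deposited signal is a table of normalized counts, per the file and its values: the authors divided each gene count by a size factor of its library and kept 2 decimals. Per the submitters' processing notes, the build was mm10 and the tools were featureCounts 1.6.3, DESeq2, STAR 2.7.3, deepTools 3.1.0, Trimmomatic 0.36 and Picard 2.18.20, with no roles stated. The annotation, the strand setting and the treatment of reads with several matches are not given in the sources used here. Any loss of reads with several matches would lower genes that have near-identical nuclear copies.

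Read numbers were recovered from the step between values in each column, and 99.99% to 100% of positive values were whole to within 0.1 read. The totals over genes were 23541885 and 16588467 in conv-dSVA_F&D, 24875359 and 21360424 in conv-dSVA_F, 22385569 and 26562418 in conv-dSVA_D, and 21274792 in the wild type. A count of 0 allows an expected count of up to 3 reads.

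Groups came from the titles. limma 3.58.1 (R 4.3.3) fitted log2 of the normalized count plus 1 with a variance trend and 1 mean per group over all 7 libraries, for genes with a mean of at least 10. It used 3 residual and 6.80 prior degrees of freedom, two-sided tests and Benjamini-Hochberg adjustment with a threshold of 0.05. The scripts were tested on simulated data. Alternatives were no low-value filter, an added count of 0.5 or 5, scaling to the column total with or without mitochondrial genes or by TMM, no trend, only the libraries compared, edgeR 4.0.16, DESeq2 1.42.0 on recovered reads, other denominators for shares, and leaving out each library. Shares have Wilson 95% intervals. Gene positions and sequences come from GENCODE M21 on GRCm38, which matched 50716 (93.1%) of the gene names. Sequence shared with nuclear genes was counted in windows of 50 bases over annotated transcripts.

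The members, lists and rules were chosen with earlier results of these data known. Members were named as follows: protein-coding and rRNA genes by library, and the 6 highest tRNA genes by library. Also named were the genes past the threshold from each list and the 5 highest of the listed nuclear copies. Polrmt, Tfam, Lrpprc, Slirp and Lars2 were added for their roles.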

Additional observations from a re-analysis of the deposited data

How the results depend on the processing

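For 24 log2 differences of members, 391 alternative values kept their direction and side of the threshold, 7 were newly past it and 3 reversed. Those were mt-Co1 for conv-dSVA_F&D minus conv-dSVA_D (-0.35 to 0.015 when leaving out 1 library, 0.015 without conv-dSVA_F&D replicate 2) and mt-Rnr2 for conv-dSVA_F minus conv-dSVA_D (-0.095 to 0.20, with -0.095 without conv-dSVA_F replicate 1 and -0.085 without conv-dSVA_D replicate 2). In 2 others DESeq2 gave no adjusted p. The mean share of all mitochondrial genes in the converted libraries was 1.030%. It was 1.037% when the total left out the 2 mitochondrial rRNA genes. It was 1.030% when the total left out Rn18s-rs5 and Lars2. These genes hold too few of the reads to move a share by much, so other denominators tested little. Counts of mitochondrial genes called differed from 0 in few settings. For conv-dSVA_F&D minus conv-dSVA_F it was 1 with DESeq2, and 0 to 1 when leaving out 1 library. Against the wild type it was 1 without the filter (mt-Ts2, which had reads in the wild-type library alone), 1 with edgeR, 2 with DESeq2 and 0 to 2 when leaving out 1 library. The causes were not tested.

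Counts over all genes depended more on the setting. For conv-dSVA_F&D minus conv-dSVA_D (482) they were 0 without the filter, 0 without the trend, 246 with only the libraries compared, 1031 with DESeq2 and 0 to 765 when leaving out 1 library (conv-dSVA_D replicate 1 and conv-dSVA_F&D replicate 1). For conv-dSVA_F&D minus conv-dSVA_F (597) they were 0, 0, 200 and 1206, and 0 to 865 (0 without conv-dSVA_F replicate 1). For conv-dSVA_F minus conv-dSVA_D (205) they were 0, 1, 504 and 729, and 0 to 485 (conv-dSVA_D replicate 2 and conv-dSVA_F&D replicate 1). For the converted groups minus the wild type (175) they were 906 without the filter, 275 with an added count of 5, 1 without the trend, 305 with edgeR, 847 with DESeq2 and 2 to 599 when leaving out 1 library (conv-dSVA_D replicate 1 and conv-dSVA_F&D replicate 2). With the converted libraries as 1 group, an alternative chosen after seeing the data, the count was 0. The cause was not tested, except that leaving out libraries leaves fewer samples. Where 1 library of a group was left out, the lone library was assumed to vary like the other groups. Scaling to the column total gave 200 higher and 191 lower calls in place of 298 and 184, 191 and 418 in place of 260 and 337, and 167 and 58 in place of 95 and 80 against the wild type. No paired analysis was possible because the labels give no replicate numbers, and those used here only name libraries.

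Few libraries limit the tests, and few reads limit tRNA genes and mt-Nd6.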
